A study of Mus musculus with 12 samples.

Results

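Phb knockdown GC2 cells were compared with control GC2 cells across all genes measured by RNA sequencing. The comparison holds the 3 libraries titled as PHB knockdown and the 3 titled as control, which are 6 of the 12 libraries of the study. The other 6 come from spermatocytes of Phb conditional knockout and control mice. GC2 is a cultured line derived from immortalised mouse spermatocytes. Per the labels, cells of both groups came from ATCC and grew in DMEM with serum and antibiotics, RNA was taken with TRIzol, and the library kit keeps the strand of each transcript. The labels give the genotypes as Control and PHB Knockdown. The sources used here do not say how Phb was lowered, what the control cells received, how long the cells grew afterwards, or whether the knockdown cells were a clone or a pool. The design text speaks of biological replicates without naming separate cultures, so the spread behind the p-values is that of these libraries and may be technical.

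Phb encodes prohibitin, which assembles with its partner Phb2 into ring-shaped complexes of the inner mitochondrial membrane. The rings act as scaffolds for membrane proteins and lipids, bind a quality-control protease of that membrane, and protect the fusion protein Opa1 from being cut. Damaged mitochondria are known to signal to the nucleus through the integrated stress response, which raises the factor Atf4 and its targets, and through interferon genes when mitochondrial nucleic acids reach the cytosol.

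The targeted gene was lower in every knockdown library. Phb (chromosome 11, 95666957 to 95680773, plus strand, GRCm38) was at 56.6, 54 and 52.4 FPKM in the control libraries and at 22.7, 18.4 and 19 FPKM in the knockdown libraries. FPKM counts fragments per length of transcript and per mapped fragments of the library. A log2 difference below is the mean of the knockdown libraries minus the mean of the control libraries on the log2(FPKM + 1) scale, where low genes show less than their full change, and for Phb it was -1.40 (SE 0.090, adjusted p = 0.00062 by limma). Its partner Phb2 was at 29.2, 33.5 and 31.7 FPKM in control and 29.9, 30.4 and 31.4 in knockdown libraries, with overlapping groups and no call (log2 difference -0.04, adjusted p = 0.7). The log2 difference of Phb2 was above 0 under all 4 other scalings. Of 17 tested genes for the complex, its proteases and their partners, 2 fell (11.8%) and 1 rose (5.88%). Over all tested rows of 1 gene these shares were 13.9% and 10.6%. Besides Phb, the gene that fell was Yme1l1, a membrane protease gene at 23.3, 24.6 and 23.8 FPKM in control and 21.4, 19.9 and 19.7 in knockdown libraries (log2 difference -0.23). Leaving out 1 library ended the call of Yme1l1 (any library but knockdown 1, adjusted p up to 0.096). Centring within chromosomes ended the call of Yme1l1 (log2 difference -0.10, adjusted p = 0.27). The call also ended for Yme1l1 with median centring, quantile normalization or scaling to an equal total (adjusted p up to 0.065). Under each of the 4 other scalings 1 of the 17 fell and 2 rose, and with 1 library left out 1 or 2 fell and 0 to 2 rose. The matrix protease gene Lonp1 had the highest level of this list, 56.6, 56.6 and 56.2 FPKM in control and 58.8, 57.8 and 56.9 in knockdown libraries, and was not called (adjusted p = 0.54).

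Of 25911 rows, 10791 were tested, those at 1 FPKM or more in 3 or more of the 6 libraries. A row can pass through 1 group alone, and its change can then only point toward that group. Such rows enter the counts and medians of the gene lists below. At an adjusted p under 0.05, 1153 rows (10.7%) were higher in knockdown cells and 1496 (13.9%) lower, and the groups did not overlap for 44.9% of rows. Without knockdown library 2 or 3 the higher rows were 750 and 744. Higher rows made up 43.5% of calls, against 53.6% with quantile normalization, 52.7% with median centring, 53% with scaling to an equal total and 58.0% with centring within each chromosome. Gene lists were read on the 9683 tested rows that hold 1 annotated gene, of which 10.6% were called higher, 13.9% lower and 45.2% did not overlap, with a median log2 difference of -0.04. On these rows, 1.04% were called higher and 1.96% lower by 2-fold or more on the log2(FPKM + 1) scale. Where limma called 0 members of a list in a direction, the number with an unadjusted p under 0.05 follows as "unadjusted". Pearson's r across genes was 0.924 to 0.937 between libraries of a group and 0.892 to 0.901 between groups. Reads shared by near-identical copies, such as those of the Oas1, H2, Apol9 and ribosomal protein families, may have been split between genes, since the counting is not described.

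The label of a spermatocyte line was set against marker genes. Germ cell markers were near 0 in all 6 libraries: of 17 listed, 12 had a row of their own, 9 stayed at or under 0.1 FPKM everywhere and 0 reached 1 FPKM, with summed levels of 0.47 to 0.79 FPKM in control and 0.66 to 0.72 in knockdown libraries. Ddx4, Dazl, Tex14, Stra8 and Rec8 were among those near 0. An assembled row that carries the name of Tdrd9, a piRNA pathway gene, was at 2.91, 3.82 and 5.43 FPKM in control and 15.9, 20.8 and 20.8 in knockdown libraries, while the annotated row of Tdrd9 was at or near 0. Of 26 meiotic prophase markers, 20 had a row, 11 stayed at or under 0.1 FPKM and 3 reached 1 FPKM, and the synaptonemal complex genes Sycp1, Sycp2 and Sycp3 were close to 0. The meiotic cohesin gene Stag3 fell from 1.86, 2.25 and 2.11 to 0.61, 0.51 and 0.45 FPKM (log2 difference -1.01, adjusted p = 0.0012), and Ythdc2, an RNA helicase gene of meiotic entry, rose from 3.52, 3.72 and 3.66 to 5.78, 5.57 and 5.7 FPKM (0.53, adjusted p = 0.0019). Stag3 passed the filter through the control libraries alone, so it could only fall. Prdm9 was at 1.3, 0.73 and 0.74 FPKM against 1.48, 1.52 and 1.43 (adjusted p = 0.095). Markers of later germ cells summed to 0.05 to 0.25 FPKM in control and 0.03 to 4.72 in knockdown libraries, nearly all of it Hspa2, listed at 0, 4.64 and 4.68 FPKM in the knockdown libraries. The defining genes of the germ line listed here, Ddx4, Dazl and the Sycp genes, thus stayed at or near 0 in both groups, against the label.

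Markers of several kinds of somatic cell were abundant, and the summed mesenchymal, smooth muscle, epithelial, mesothelial and Sertoli levels did not overlap between the groups. Of 14 fibroblast and mesenchyme markers, 8 of the 12 with a row reached 1 FPKM, and they summed to 869 to 939 FPKM in control and 653 to 689.7 in knockdown libraries, led by the matrix gene Fn1 and the collagen gene Col1a1. Vim, the mesenchymal filament gene, was at 135, 142 and 135 FPKM in control and 151, 151 and 156 in knockdown libraries. Smooth muscle markers summed to 90.2 to 99.0 FPKM in control and 16.4 to 17.9 in knockdown libraries, almost all from Acta2, with Myh11 at or near 0. Epithelial markers summed to 256 to 351 FPKM in control and 622 to 690.0 in knockdown libraries, from Krt18 and Krt19, with Epcam, Cdh1, Krt7 and Cldn4 near 0. Mesothelial markers summed to 87.1 to 92.0 FPKM in control and 287 to 306 in knockdown libraries, led by Msln. Sertoli cell markers summed to 239 to 248 against 254 to 261 FPKM, mostly the protease gene Ctsl, while Amh and Gata1 were near 0. Ctsl itself was lower in knockdown libraries, with means of 186 FPKM in control and 172 in knockdown. The higher sum came mainly from Tjp1 (means 35.2 and 49.3) and Clu (10.1 and 22.2). Clu was chosen after its values were seen. Leydig cell, endothelial and leukocyte markers summed to at most 8.92 FPKM in any library, with Cyp17a1, Vwf, Ptprc and Adgre1 near 0. In bulk RNA, fewer cells of a kind and less RNA per cell cannot be told apart. The part of these markers in the results below was not tested.

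**Figure D1:**
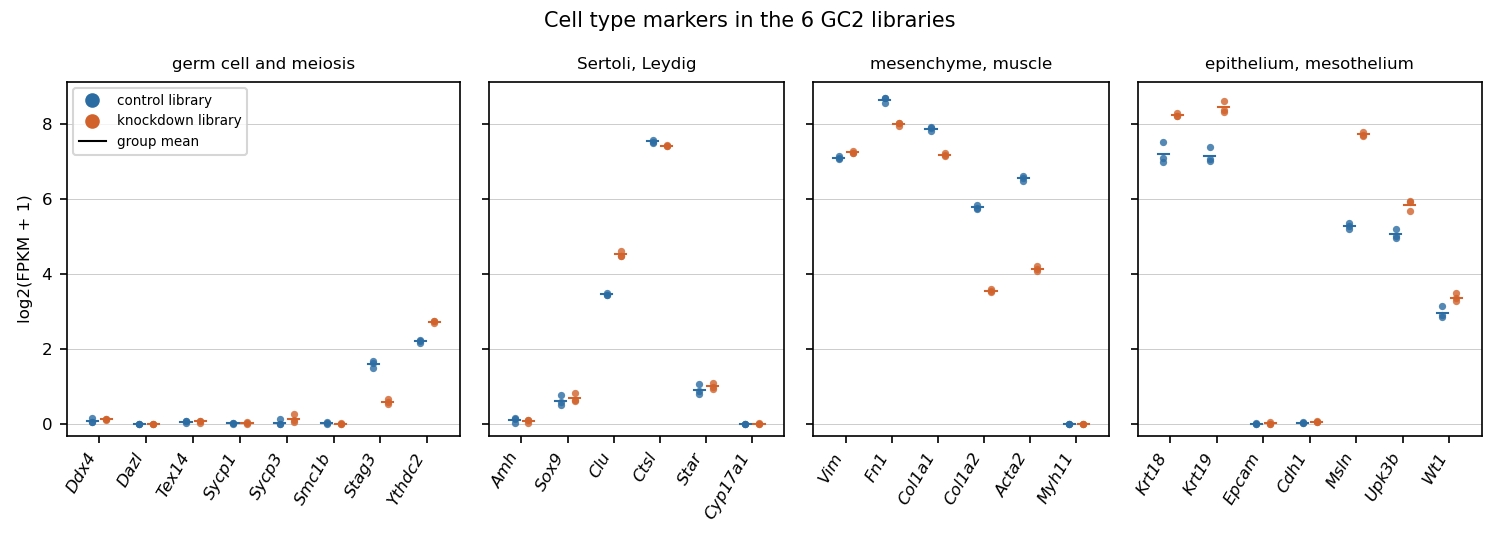
Levels of marker genes as log2(FPKM + 1) on the vertical axis in each of the 6 GC2 libraries, in 4 panels by cell type, with points for libraries and short lines for group means. Ddx4, Sycp1 and Amh sit near 0 in both groups, Col1a2 and Acta2 are lower in all 3 knockdown libraries, and Krt18, Krt19 and Msln are higher in all 3.

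Whole chromosomes also differed between the groups. Each library's median per chromosome was taken after subtracting every gene's mean over the 6 libraries. These medians did not overlap between groups for 18 of 20 chromosomes, all but 14 and 16, with 7 higher and 11 lower in knockdown cells. On chromosome 9, 115 of 546 tested genes were lower and 20 higher, and all 7 windows of 20 Mb had a median below 0. Chromosome 15 held 90 lower and 21 higher genes of 392, with 6 of 6 windows below 0. On chromosome 18, 68 of 249 genes were higher and 13 lower, with 5 of 5 windows above 0, and on chromosome 4, 112 of 634 were higher and 39 lower, with 6 of 8 windows above 0. The shifts were small, from a median log2 difference of -0.18 on chromosome 15 to 0.19 on chromosome 18. Without control library 3, knockdown 2 or knockdown 3 the higher genes of chromosome 4 were 73, 67 and 68, and without any library but control 1 and knockdown 1 the lower genes of chromosome 9 were 67 to 76. The cause was not tested, and centring each library on its chromosome medians is used below as a measured check.

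Protein-coding genes of the Y chromosome were several-fold lower in knockdown cells. Ddx3y, an RNA helicase gene, was at 6.81, 5.85 and 6.96 FPKM in control and 0.87, 0.88 and 0.85 in knockdown libraries (log2 difference -2.01, adjusted p = 0.00012). Eif2s3y, a translation initiation gene, was at 5.49, 5.69 and 5.39 against 0.63, 0.69 and 0.84 FPKM (-1.92, adjusted p = 0.00011). The histone demethylase gene Uty was at 1.25, 1.14 and 1.06 against 0.12, 0.12 and 0.15 FPKM (-0.93, adjusted p = 0.00087), and Kdm5d, below the filter, at 0.82, 0.84 and 0.82 against 0.08, 0.09 and 0.09. The ratio of mean levels lay between 7.55 and 9.54 for these 4 genes, with no overlap between groups. The Y-linked rows were chosen after their values were seen. Ddx3y, Eif2s3y and Uty passed the filter through the control libraries alone, so they could only fall.

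**Figure D2:**
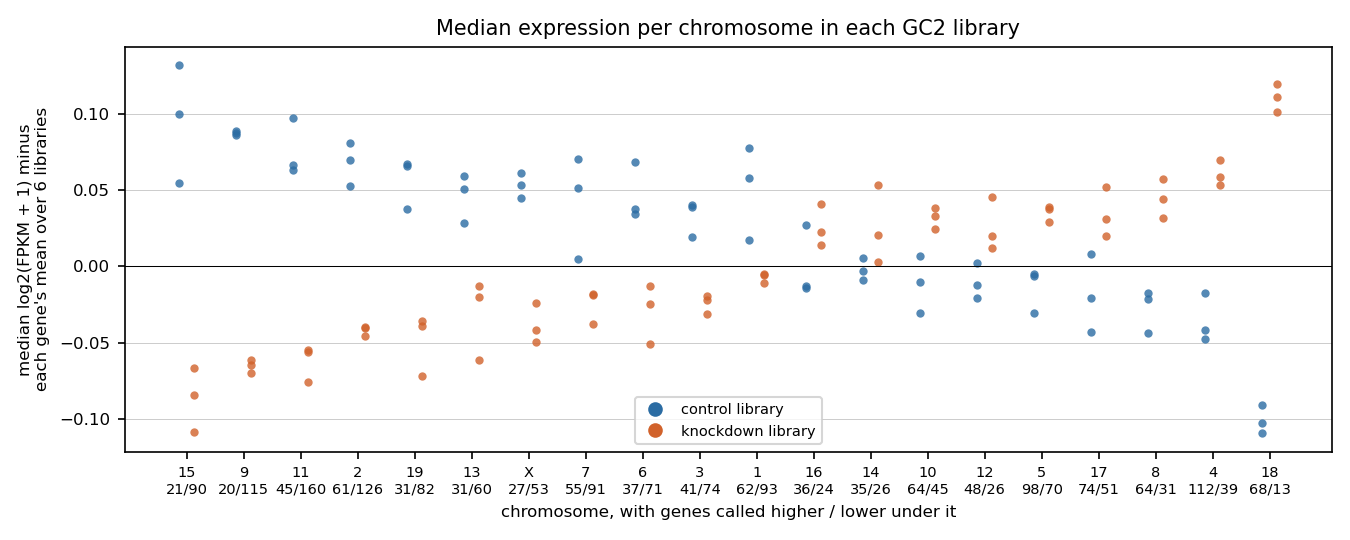
Median deviation of log2(FPKM + 1) from each gene's 6-library mean on the vertical axis for every chromosome, with 1 point per library and the counts of genes called higher and lower under each chromosome name. Control and knockdown points separate on 18 of 20 chromosomes, most widely on 18, 15 and 9.

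That the genes named here changed by more than the chromosome medians follows from their choice. On each of those 4 chromosomes they are called genes with the largest changes in its direction. On chromosome 9 these were the BMP regulator gene Bmper, Vwa5a, the inflammatory caspase gene Casp4 (7.48, 7.13 and 7.29 to 3.32, 3.29 and 3.17 FPKM), Oaf and the collagen gene Col12a1, with log2 differences of -1.19 for Bmper to -0.90 for Col12a1. On chromosome 15 the interferon-inducible genes Apol9b (20.9, 49.7 and 49.3 to 4.44, 5.09 and 4.96 FPKM), Apol9a and Ly6e fell, with Ankrd46 and the ER degradation gene Derl1. On chromosome 18 Ccdc68 rose from 2.06, 1.86 and 1.97 to 8.29, 7.02 and 7.67 FPKM, followed by Cdh2, the heme synthesis gene Fech, the ubiquitin ligase gene Nedd4l and Epb41l4a, at log2 differences of 0.94 to 1.12. On chromosome 4 the epidermal factor gene Grhl3 rose from 0.58, 0.32 and 0.5 to 4.99, 5.34 and 5.03 FPKM, with Nppb, Rab3b, Lurap1l and the interleukin 22 receptor gene Il22ra1. Grhl3 passed the filter through the knockdown libraries alone, so it could only rise. With 1 library omitted, the call was lost for Bmper (any library but knockdown 1, adjusted p up to 0.069), Apol9a (control 3, adjusted p = 0.054) and Derl1 (any library but control 2, adjusted p up to 0.11). Omission of a single library ended the call of Lurap1l (knockdown 1, knockdown 2 or knockdown 3, adjusted p up to 0.086). Centred within chromosomes, the call was lost for Bmper (log2 difference -0.94, adjusted p = 0.06) and Derl1 (log2 difference -1.29, adjusted p = 0.083). Calls ended as well for Derl1 with no filter on low values (adjusted p = 0.066).

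Interferon genes gave the most falls of the 34 lists. Interferons signal through receptors and Janus kinases to factors such as Stat2 and Irf9, which bind response elements in the promoters of sensors, antiviral effectors and their own regulators. Of 100 listed genes, 71 were tested on rows of their own and 19 stood only on rows shared with other genes. Of the 71, 55 fell and 2 rose, 46 of the falls being 2-fold or more on the log2(FPKM + 1) scale, and the median log2 difference was -1.51. Members such as Ifi44, Mx2 and Usp18 passed the filter through the control libraries alone, so they could only fall. With centring within chromosomes 52 fell, and with 1 library left out 47 to 52. Without any 1 library the higher members were 0 or 1.

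Promoters of the most strongly lowered members are shown because they hold the interferon response core that this gene class is known for. Each runs from 250 bases before to 50 bases after the transcript start, 5′ to 3′ on the gene's strand, from RefSeq on GRCm38.p6. Capitals mark matches on either strand to the core of the interferon-stimulated response element, searched as 2 copies of GAAA spaced by 2 bases, and overlapping matches run together. Usp18, with a larger fall than Gbp3, has no entry in the promoter table.
Ifit1, chr19:34640639-34640938, plus strand: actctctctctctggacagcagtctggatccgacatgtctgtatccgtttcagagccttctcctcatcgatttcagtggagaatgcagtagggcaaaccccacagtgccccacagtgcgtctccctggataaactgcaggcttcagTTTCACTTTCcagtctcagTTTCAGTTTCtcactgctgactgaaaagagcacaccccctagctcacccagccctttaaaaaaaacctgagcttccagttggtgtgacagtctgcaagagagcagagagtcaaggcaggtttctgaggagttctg
Gbp3, chr3:142559794-142560093, plus strand: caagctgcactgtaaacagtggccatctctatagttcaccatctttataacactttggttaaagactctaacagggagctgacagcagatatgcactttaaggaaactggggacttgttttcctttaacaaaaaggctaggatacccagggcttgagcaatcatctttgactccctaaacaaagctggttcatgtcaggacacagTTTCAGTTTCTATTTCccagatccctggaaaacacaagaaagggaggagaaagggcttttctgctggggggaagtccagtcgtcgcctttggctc
Oas1a, chr5:120907476-120907775, minus strand: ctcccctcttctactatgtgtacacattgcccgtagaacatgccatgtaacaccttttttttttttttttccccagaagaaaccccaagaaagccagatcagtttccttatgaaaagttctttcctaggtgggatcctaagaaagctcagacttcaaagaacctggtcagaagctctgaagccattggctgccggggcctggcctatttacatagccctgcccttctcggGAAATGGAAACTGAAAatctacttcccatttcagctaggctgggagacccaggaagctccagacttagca

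The matches began 104 and 85 bases before the start of Ifit1, 45 and 39 before that of Gbp3, for which the first of 2 listed promoters is shown, and 20 and 14 before that of Oas1a. Over all 32851 RefSeq promoters of this length, 3.44% held the core. The share was 2.91% over promoters of tested genes, 1.61% over those called higher, 6.66% over those called lower and 22.9% over those lower by 2-fold or more. Among 50 promoters of 44 interferon genes that fell, 21 held it, or 42%. The list gathers known interferon genes, so a high share can follow from the list itself. Listed genes that did not fall were not counted apart, so the share cannot be tied to the fall. Matches to TTCNNNGAA, the STAT core, stood in 20% of these 50 against 8.30% of all promoters and 6.61% of those of tested genes. A match is a description of letters in the window, and matches of different motifs were counted separately and may overlap.

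Among receptors and kinases, 1 of 6 fell and 1 rose. Jak2, the kinase gene used by interferon gamma and many cytokines, went from 50.5, 54.5 and 46.4 to 24.1, 24.8 and 23.2 FPKM (log2 difference -1.04, adjusted p = 0.00077). Jak1, named for the count, went from 26.8, 26.9 and 31.3 to 34.9, 35.8 and 35.7 FPKM (log2 difference 0.32). The limma call was lost without 1 library for Jak1 (any library but control 3, adjusted p up to 0.089). Calls lost with centring within chromosomes were those of Jak1 (log2 difference 0.24, adjusted p = 0.12). The receptor gene Ifngr1 was at 4.97, 10.3 and 9.7 FPKM against 12.8, 11.3 and 11.9 with no call (adjusted p = 0.21). Transcription factors fell in 5 of 7: Irf7, the master factor of interferon production, went from 18.8, 21.6 and 23.8 to 0.83, 1.09 and 0.91 FPKM (log2 difference -3.52, adjusted p = 5.8e-05) and Stat2 from 11.6, 11.5 and 11.4 to 3.5, 3.78 and 3.97 (-1.40, adjusted p = 0.00014). Irf9, chosen after its values were seen, stood on a row shared with Rnf31. The row of Rnf31;Irf9 fell from 5.62, 6.33 and 6.28 to 2.01, 2.26 and 2.02 FPKM, and these values cannot be given to either gene of the row.

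Sensors of foreign nucleic acids and their adaptors fell in 6 of 9 and 1 rose. Ddx58, which encodes RIG-I, was at 26.6, 26.8 and 26.4 FPKM in control and 4.82, 4.97 and 5.06 in knockdown libraries (log2 difference -2.21), and Zbp1 and Ifih1 fell by 2.93 and 1.85 on the log2 scale. The DNA sensor gene Aim2 was the member that rose (log2 difference 0.50), and leaving out control 1, control 2, control 3 or knockdown 2 (adjusted p up to 0.064) ended its call. Under each of the 4 other scalings 2 sensor genes rose. These sensor genes were chosen after their values were seen. Among 40 tested effectors, 35 fell and 0 rose (0 unadjusted), and the log2 difference of all 40 was below 0. Ifit1 (chromosome 19, 34640871 to 34650009, plus strand), whose product binds viral RNA, was at 80.1, 79.9 and 81.6 FPKM in control and 2.75, 2.45 and 2.39 in knockdown libraries, a mean 31.8 times lower (log2 difference -4.53, SE 0.055, adjusted p = 1.2e-05). Oas1a, which makes the messenger that activates RNase L, went from 41, 40.5 and 35.8 to 2.04, 2.03 and 2.07 FPKM (adjusted p = 1.4e-05). Bst2, whose product tethers budding viruses, went from 151, 182 and 168 to 14.9, 6.4 and 17.9 FPKM, with knockdown library 2 the lowest. Ifi44 went from 12.1, 12.1 and 12.3 to 0.11, 0.11 and 0.08 FPKM, Mx2 from 13.5, 13.2 and 13.3 to 0.25, 0.27 and 0.33, Lgals3bp from 56, 61.1 and 62.2 to 2.08, 7.66 and 5.38 and Oasl2 from 21.4, 21 and 35.7 to 1.73, 1.71 and 1.63.

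In Isg15, a ubiquitin-like modifier gene, a single library decided the call. It was at 193, 1.33 and 191 FPKM in control and 5.85, 5.23 and 6.27 in knockdown libraries, so control library 2 lay below all knockdown libraries, and the gene was not called (log2 difference -2.71, adjusted p = 0.35). Without control library 2 it was called lower, at a log2 difference of -4.83 and an adjusted p of 0.00033. It was chosen after its values were seen. All 6 tested interferon-inducible GTPase genes fell. Gbp3, a guanylate-binding protein gene, went from 37.5, 35.8 and 34.7 to 1.73, 1.66 and 1.96 FPKM (log2 difference -3.73, SE 0.064, adjusted p = 1.4e-05). Of 3 negative regulators, 2 fell, and 1 without knockdown library 3. Usp18, which removes Isg15 from proteins and dampens the receptor, went from 19.4, 22 and 17.2 to 0.21, 0.24 and 0.36 FPKM (log2 difference -4.01, adjusted p = 4e-05), with no overlap between groups.

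**Figure D3:**
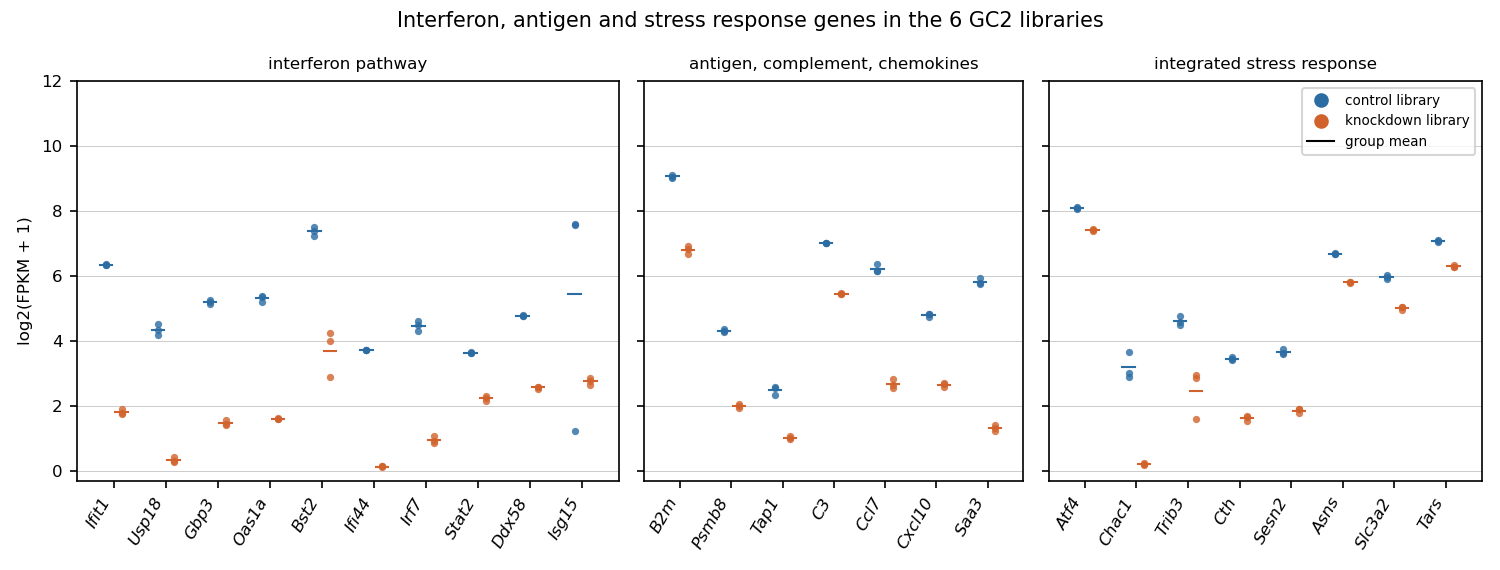
Levels as log2(FPKM + 1) on the vertical axis of interferon genes, antigen presentation and inflammatory genes, and stress response genes in the 6 GC2 libraries, with points for libraries and short lines for group means. Control points lie above knockdown points for every gene drawn except Isg15, whose second control library is at 1.33 FPKM.

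Genes of MHC class I antigen presentation fell in 11 of 15 tested and 1 rose, with a median log2 difference of -0.93. This machinery cuts proteins with the immunoproteasome, carries peptides into the ER and loads them on class I molecules. B2m, the light chain gene, was at 559, 535 and 519.9 FPKM in control and 120.3, 101 and 113 in knockdown libraries (log2 difference -2.26, SE 0.075, adjusted p = 9e-05). The heavy chain gene H2-D1 went from 16.2, 16.1 and 15.2 to 5.89, 5.36 and 5.67 FPKM. The immunoproteasome gene Psmb8 went from 19.9, 18.4 and 18.8 to 3.18, 3.02 and 2.81, the peptide transporter genes Tap1 and Tap2 from 4.06, 4.89 and 5.01 to 0.96, 1.01 and 1.1 and from 6.41, 7.23 and 7.08 to 1.63, 1.6 and 1.6, and the trimming enzyme gene Erap1 from 11.5, 10.1 and 10.2 to 4.45, 4.87 and 4.71 FPKM. All 15 had groups that did not overlap, against 45.2% of all tested rows of 1 gene. The calls came to 73.3% lower and 6.67% higher, against 13.9% and 10.6% of those rows. The member that rose was the ER lectin gene Calr, at 282, 283 and 280.2 against 337, 342 and 341 FPKM (log2 difference 0.27, adjusted p = 0.0031), and its partner Pdia3 was at 298, 309.5 and 359 against 371, 384 and 380.1 with no call (adjusted p = 0.084). The higher members were 2 without control library 3 and 2 with centring within chromosomes.

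Complement genes fell in 6 of 9 and 0 rose (1 unadjusted), and 1 rose with centring within chromosomes, quantile normalization or median centring. C3, the central complement protein gene, was nearly constant within groups, at 129.7, 129 and 129 FPKM in control and 42.7, 43.1 and 43.9 in knockdown libraries (log2 difference -1.56, SE 0.034, adjusted p = 2.8e-05). C1rb, a protease gene of the classical pathway, went from 6.81, 7.6 and 6.8 to 3.9, 3.59 and 4.1 FPKM, and C1qtnf1 and C1qtnf6, whose products share a domain with C1q, changed by -1.15 and -0.80 on the log2 scale. Coagulation genes split, with 2 higher and 2 lower of 7. The plasminogen activator gene Plat rose from 9.61, 9.17 and 8.79 to 16.8, 16.2 and 16.1 FPKM and the protein C receptor gene Procr from 17.8, 19.3 and 18.8 to 29.3, 32.8 and 31.7.

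Chemokine genes fell in 7 of 9 and cytokine and acute-phase genes in 5 of 8, with 0 called higher in either group (1 and 0 unadjusted). Ccl7, which attracts monocytes, was at 81.6, 70.5 and 71.2 FPKM in control and 6.1, 5.3 and 4.87 in knockdown libraries (log2 difference -3.55, adjusted p = 4.6e-05). Cxcl10, an interferon-induced attractant of T cells, went from 27.7, 27.6 and 26.1 to 5.49, 5.46 and 5.01 FPKM (log2 difference -2.15, adjusted p = 4e-05), and Ccl2 from 40.5, 179 and 164 to 20.2, 15.4 and 12.3, with control library 1 far under the other controls. Cxcl1 had the highest level of the list, 242, 222 and 245 against 54.3, 135 and 147 FPKM, and was not called (adjusted p = 0.088). The acute-phase gene Saa3 was at 60.3, 54.4 and 53.3 against 1.5, 1.33 and 1.68 FPKM, a mean 37.2 times lower (log2 difference -4.51, adjusted p = 1.4e-05). The macrophage growth factor gene Csf1 went from 29, 31.4 and 27.6 to 11.6, 8.84 and 13.6 FPKM and the alarmin gene Il33 from 14.9, 15.2 and 4.78 to 1.74, 1.43 and 1.25. Of 16 NF-kB genes, 5 fell and 2 rose, without control library 2 the count of falls was 3, and with 1 library left out 1 or 2 rose. Fits without 1 library lost the call of Ccl2 (any library but control 1, adjusted p up to 0.097) and Il33 (any library but control 3, adjusted p up to 0.067). Other settings ended calls too, for Ccl2 with no filter on low values (adjusted p = 0.053). Under chromosome centring 2 NF-kB genes fell, and 1 chemokine gene and 1 cytokine or acute-phase gene rose.

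Of 30 tested JAK-STAT genes, 8 fell (26.7%) and 4 rose (13.3%), against 13.9% and 10.6% of all tested rows of 1 gene. The median log2 difference was -0.16, and with 1 library left out 6 to 8 fell and 1 to 4 rose. Of 8 kinase and STAT genes 2 fell and 1 rose, and of 15 feedback genes and targets 1 fell and 3 rose. With 1 library left out, 0 or 1 of the 8 rose, and of the 15, 0 fell (limma, adjusted). Cytokine receptor genes fell in 5 of 7 and 0 rose (0 unadjusted). The oncostatin M receptor gene Osmr went from 11.2, 10.9 and 11.2 to 4.49, 4.39 and 4.29 FPKM (log2 difference -1.17, adjusted p = 0.00013), the leukemia inhibitory factor receptor gene Lifr from 4.76, 4.09 and 4.66 to 1.91, 1.1 and 1.99, the growth hormone receptor gene Ghr from 5.08, 5.42 and 5.46 to 1.24, 2.42 and 2.54 and Il4ra from 8.87, 9.64 and 9.39 to 5, 4.82 and 4.78. In fits that left out a library, the call ended for Ghr (control 2 or control 3, adjusted p up to 0.051). Osmr, Lifr and Ghr lie on chromosome 15.

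Genes of the integrated stress response fell in knockdown cells. In this response, kinases that sense stress block a translation initiation factor, Atf4 is then translated, and it turns on genes that make, import and charge amino acids. Of 44 tested genes, 26 fell and 1 rose, with a median log2 difference of -0.68, and 24 fell with centring within chromosomes. With quantile normalization 2 rose. The pair of promoters below is shown because Chac1 and Trib3 fell most in the list, and capitals mark a match to TGATGNAA on either strand, the core of CEBP-ATF composite sites.
Chac1, chr2:119350992-119351291, plus strand: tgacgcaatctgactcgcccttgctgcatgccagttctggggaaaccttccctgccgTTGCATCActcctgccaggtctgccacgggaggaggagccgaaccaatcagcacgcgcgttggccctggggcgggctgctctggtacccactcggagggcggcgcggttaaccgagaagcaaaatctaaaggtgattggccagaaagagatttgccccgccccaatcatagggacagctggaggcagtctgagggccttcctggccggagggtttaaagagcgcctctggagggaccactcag
Trib3, chr2:152344011-152344310, minus strand: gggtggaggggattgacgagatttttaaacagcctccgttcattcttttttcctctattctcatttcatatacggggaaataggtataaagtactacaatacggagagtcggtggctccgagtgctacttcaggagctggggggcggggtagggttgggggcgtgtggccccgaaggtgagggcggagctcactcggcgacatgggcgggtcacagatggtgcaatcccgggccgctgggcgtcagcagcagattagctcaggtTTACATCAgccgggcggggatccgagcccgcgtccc

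The match began 193 bases before the start of Chac1 and 14 bases after that of Trib3. This core stood in 3.97% of all promoters, in 2.03% of those of tested genes, in 10 of 25 promoters (40%) of stress response genes that fell and in 5 of 9 (55.6%) of cytosolic tRNA synthetase genes that fell. Here too, listed genes that did not fall were not counted apart, so the shares cannot be tied to the fall. Of the remaining motifs searched, the cyclic AMP response element TGACGTCA stood in 1.79% of all promoters and in 0 of those 25 and 9. The CCAAT box stood in 37.4% of all promoters, 38.5% of those of tested genes and 56% of the 25.

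Of 12 factors and kinases of the response, 3 fell and 1 rose. Atf4 (chromosome 15, 80255184 to 80257541, plus strand) was at 267, 279 and 276 FPKM in control and 173, 168 and 169 in knockdown libraries (log2 difference -0.69, SE 0.035, adjusted p = 0.00032). Trib3, a pseudokinase gene that feeds back on Atf4, went from 21.6, 26.3 and 23.2 to 2.05, 6.26 and 6.7 FPKM. Eif2ak3, named for the count, encodes the ER stress kinase PERK and rose from 3.64, 3.27 and 3.8 to 5.34, 4.94 and 5.04 FPKM (log2 difference 0.42, adjusted p = 0.01). Genes of amino acid synthesis fell in 8 of 12, among them Cth, which makes cysteine, from 9.89, 10.3 and 9.76 to 1.93, 2.26 and 2.2 FPKM (log2 difference -1.81, adjusted p = 0.00011). Amino acid transport genes fell in 6 of 9, among them the cystine carrier gene Slc7a11, from 4.15, 4.4 and 3.88 to 1.35, 1.54 and 0.45 FPKM. Other targets fell in 9 of 11. Chac1, which degrades glutathione, went from 11.7, 7.15 and 6.38 to 0.14, 0.18 and 0.16 FPKM (log2 difference -2.98, adjusted p = 0.00086), Sesn2 from 11.4, 12.4 and 11.2 to 2.44, 2.72 and 2.74, and Ddit4, an inhibitor of growth signalling, from 7.06, 7.43 and 7.56 to 1.1, 1.9 and 2.78. Chac1 passed the filter through the control libraries alone, so it could only fall. Leaving out 1 library ended the call of Trib3 (control 2, adjusted p = 0.052).

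Cytosolic tRNA synthetase genes, which charge tRNAs for translation and include Atf4 targets, fell in 11 of 20 and 0 rose (0 unadjusted), with a median log2 difference of -0.31. Tars was at 139, 132 and 134 FPKM in control and 77.6, 80.3 and 77.5 in knockdown libraries (log2 difference -0.78, adjusted p = 0.00033). Gars went from 93, 89.1 and 88.2 to 62.6, 63.9 and 57.9, Sars from 51.9, 53.6 and 49.4 to 36.3, 34 and 35, Farsb from 29.7, 29.8 and 29.9 to 20.2, 21.1 and 20.8, Cars from 24.9, 23.7 and 24.2 to 17.3, 16.6 and 16.5 and Aars from 47.6, 46 and 47 to 34.5, 35.1 and 34.1 FPKM. These 6 lie on 6 different chromosomes and their groups did not overlap. Nars, the most abundant, was at 196, 180.1 and 178 against 211, 189.9 and 198 FPKM with overlapping groups (adjusted p = 0.24), and its log2 difference of 0.12 became -0.091 with centring within chromosomes. Of 14 mitochondrial synthetase genes, 0 fell (0 unadjusted) and 3 rose, and the higher count was 0 to 3 with 1 library left out, changed by over 1.5 times without each library but knockdown 1, and 1 without a filter on low values. With quantile normalization 1 cytosolic synthetase gene rose. Of 23 genes of the ER unfolded protein response, 3 fell and 1 rose, and 2 rose without control library 3. Herpud1, which helps degrade ER proteins, went from 17.4, 18.3 and 19.8 to 12.6, 12.7 and 13.4 FPKM and the chaperone gene Canx from 159, 157 and 163 to 134, 133 and 126, and the most abundant member, P4hb, was at 368, 369 and 373 against 362, 361 and 359 with no call (adjusted p = 0.42). Chromosome centring ended the call of Canx (log2 difference -0.02, adjusted p = 0.84). With that centring 1 gene of the ER response fell and 3 rose, and with scaling to an equal total 2 rose.

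Epithelial and mesothelial genes rose. Mesothelial cells line body cavities and the surface of the testis, and keratins are the filaments of epithelial cells. Of 7 tested genes for keratins and other epithelial proteins, 6 rose and 0 fell (0 unadjusted), with a median log2 difference of 1.04. Of 10 mesothelial genes, 7 rose and 0 fell (0 unadjusted), with a median of 0.86, and Krt18 and Krt19 stand in both lists. Msln (chromosome 17, 25748613 to 25754378, minus strand), the mesothelial surface protein gene, was at 36.3, 40.2 and 38.4 FPKM in control and 208, 223 and 207 in knockdown libraries (log2 difference 2.44, SE 0.056, adjusted p = 3e-05). Gpm6a went from 17.6, 19.2 and 19.6 to 60.7, 63.7 and 64.5 FPKM, and the uroplakin genes Upk1b and Upk3b from 114, 112 and 116 to 217, 216 and 220.1 and from 30.5, 36.3 and 31.4 to 50.6, 60.2 and 61.4. Wt1, a mesothelial and Sertoli cell factor gene, went from 7.88, 6.27 and 6.57 to 10.3, 9.33 and 8.7 FPKM. Not every mesothelial marker rose. Bnc1 was at 12.1, 8.42 and 15.2 against 18.2, 13.7 and 9.26 FPKM, with overlapping groups and no limma call (adjusted p = 0.71). Below the filter, Lrrn4 was at 0.11, 0.22 and 0.23 against 0.01, 0.02 and 0.04 FPKM. Muc16, also below it, was at 0.12, 0.13 and 0.16 against 0.15, 0.11 and 0.13. These markers were chosen after their values were seen.

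Krt19 was at 133, 129 and 166 FPKM in control and 393, 336 and 322 in knockdown libraries (log2 difference 1.29, adjusted p = 0.0024), and Krt18 at 136, 126 and 184 and 296, 313 and 299. The epithelial marker Krt8 was at 0.87, 0.9 and 0.66 FPKM in control and 0.72, 0.85 and 0.95 in knockdown libraries, and was not tested. Krt14, a keratin of basal cells, went from 45.4, 50.3 and 46.6 to 121, 83.5 and 136 FPKM and Krt80 from 2.98, 3.18 and 3.11 to 14.3, 8.86 and 12.7. Esrp2, a splicing regulator of epithelial cells, went from 2.11, 1.9 and 2.12 to 4.29, 4.43 and 2.77 FPKM. The defining genes Epcam and Cdh1 were near 0 in all 6 libraries, as given above. With 1 library omitted, the call was lost for Wt1 (any library but control 1, adjusted p up to 0.12) and Esrp2 (any library but knockdown 3, adjusted p up to 0.11). Centring within chromosomes ended the call of Esrp2 (log2 difference 0.57, adjusted p = 0.056). A call was further lost for Wt1 with no filter on low values (adjusted p = 0.069) and for Esrp2 with no filter on low values (adjusted p = 0.067).

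Genes of tight and gap junctions and desmosomes rose in 7 of 10 and 0 fell (0 unadjusted), with a median log2 difference of 0.53. Cgn, the tight junction scaffold cingulin, went from 8.04, 8.56 and 9.14 to 22.2, 22.4 and 21.9 FPKM (log2 difference 1.28, adjusted p = 0.00021), the desmosome genes Dsp and Pkp1 from 0.85, 0.8 and 0.8 to 2.56, 2.78 and 2.75 and from 1.65, 1.62 and 1.68 to 3.61, 3.45 and 3.69. Dsp passed the filter through the knockdown libraries alone. Of 15 cadherin and other adhesion genes, 5 rose and 2 fell. N-cadherin, Cdh2, on chromosome 18, went from 16.9, 17.6 and 13.5 to 33.7, 41 and 33.2 FPKM and the tetraspanin gene Tspan8 from 6.05, 5.97 and 4.84 to 45.9, 43.9 and 44 (log2 difference 2.79, adjusted p = 7.1e-05), while the junction gene Jam3 fell from 2.96, 2.84 and 2.78 to 1.55, 0.7 and 0.82. Integrins split, with 3 higher and 3 lower of 12, and 1 fell without control library 3, knockdown 2 or knockdown 3 or without a filter on low values. The most abundant, Itgb1, was at 138, 155 and 159 against 149, 179 and 176 FPKM with overlapping groups.

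Of 79 extracellular matrix genes, 38 fell and 9 rose, with a median log2 difference of -0.33. Centring within chromosomes left 32 falls. Collagens fell in 10 of 16 and 0 rose (0 unadjusted). Col1a2 (chromosome 6, 4504814 to 4541544, plus strand), a chain of the main fibrillar collagen, was at 52.7, 53.8 and 56.8 FPKM in control and 10.6, 10.8 and 11.1 in knockdown libraries (log2 difference -2.23, SE 0.049, adjusted p = 2.8e-05). Its partner chain Col1a1, chosen after its values were seen, went from 226, 244 and 238 to 141, 145 and 149 FPKM, a log2 difference of -0.70 (-0.43 with centring within chromosomes), and Col5a2 from 35.9, 35.3 and 35.3 to 15.9, 15.4 and 15.7. Collagen-processing genes fell in 7 of 13 and 0 rose (0 unadjusted). P4ha1, which hydroxylates collagen, went from 25.1, 27 and 26.1 to 15.1, 13.5 and 13.1 FPKM.

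Of 31 glycoprotein and proteoglycan genes, 15 fell and 7 rose. The small proteoglycan gene Bgn was at 33.5, 36.1 and 35.7 FPKM in control and 4.33, 4.91 and 4.88 in knockdown libraries (log2 difference -2.66, adjusted p = 3.1e-05), Igfbp7 went from 9.25, 7.96 and 12.4 to 1.18, 0.63 and 0.95 and thrombospondin, Thbs1, from 29.8, 28.6 and 29.1 to 11.5, 10.5 and 10.3. Emilin1 fell from 6.2, 5.5 and 6.13 to 2.26, 2.61 and 1.96 FPKM, and Fn1, the most abundant, from 378, 417 and 412 to 246, 259.7 and 263 (log2 difference -0.65, adjusted p = 0.0015). Dcn, the proteoglycan decorin, moved the other way, from 68.2, 62.9 and 64 to 94.8, 94.1 and 94.3 FPKM (log2 difference 0.53, adjusted p = 0.0015). Of 19 remodelling enzymes and inhibitors, 6 fell and 2 rose, and 1 rose without knockdown library 2 or without a filter on low values. The fall of Pdgfra, a mesenchymal receptor gene on the row Pdgfra;Mir7025, was from 8.87, 10.9 and 10.4 to 5.07, 3.76 and 4.64 FPKM. Dcn and the Pdgfra row were chosen after their values were seen.

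Actin and smooth muscle genes were called higher in 5 of 19 and lower in 1, with a median log2 difference of 0.09. Acta2, smooth muscle actin, was at 88.9, 97.8 and 94.5 FPKM in control and 16.1, 17.6 and 16.8 in knockdown libraries (log2 difference -2.41, SE 0.057, adjusted p = 3.1e-05). Csrp1 rose from 146, 162 and 159 to 203, 219 and 219 FPKM, the calponin gene Cnn2 from 23, 23.6 and 23.9 to 31, 32.3 and 31.2, the filamin gene Flna from 119, 126 and 126 to 138, 144 and 151 and Tpm2 from 38.7, 36.5 and 39.3 to 44.6, 44.1 and 45. Filip1l had the largest log2 difference of all named rises, 3.09, with 0.1, 2.09 and 0.03 FPKM in control and 6.75, 15.5 and 16 in knockdown libraries. Actb was at 431, 439 and 432 against 540.1, 392 and 413 with no call (adjusted p = 0.88). Omission of a single library ended the call of Flna (any library but knockdown 1, adjusted p up to 0.085), Tpm2 (any library but control 3, adjusted p up to 0.076) and Filip1l (knockdown 2 or knockdown 3, adjusted p up to 0.053). The higher count was 3, 3 and 2 without control library 1, knockdown 2 and knockdown 3, and the lower count was 2 without control library 2. Centred within chromosomes, the call was lost for Tpm2 (log2 difference 0.14, adjusted p = 0.14). The call also ended for Flna with no filter on low values (adjusted p = 0.07).

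**Figure D4:**
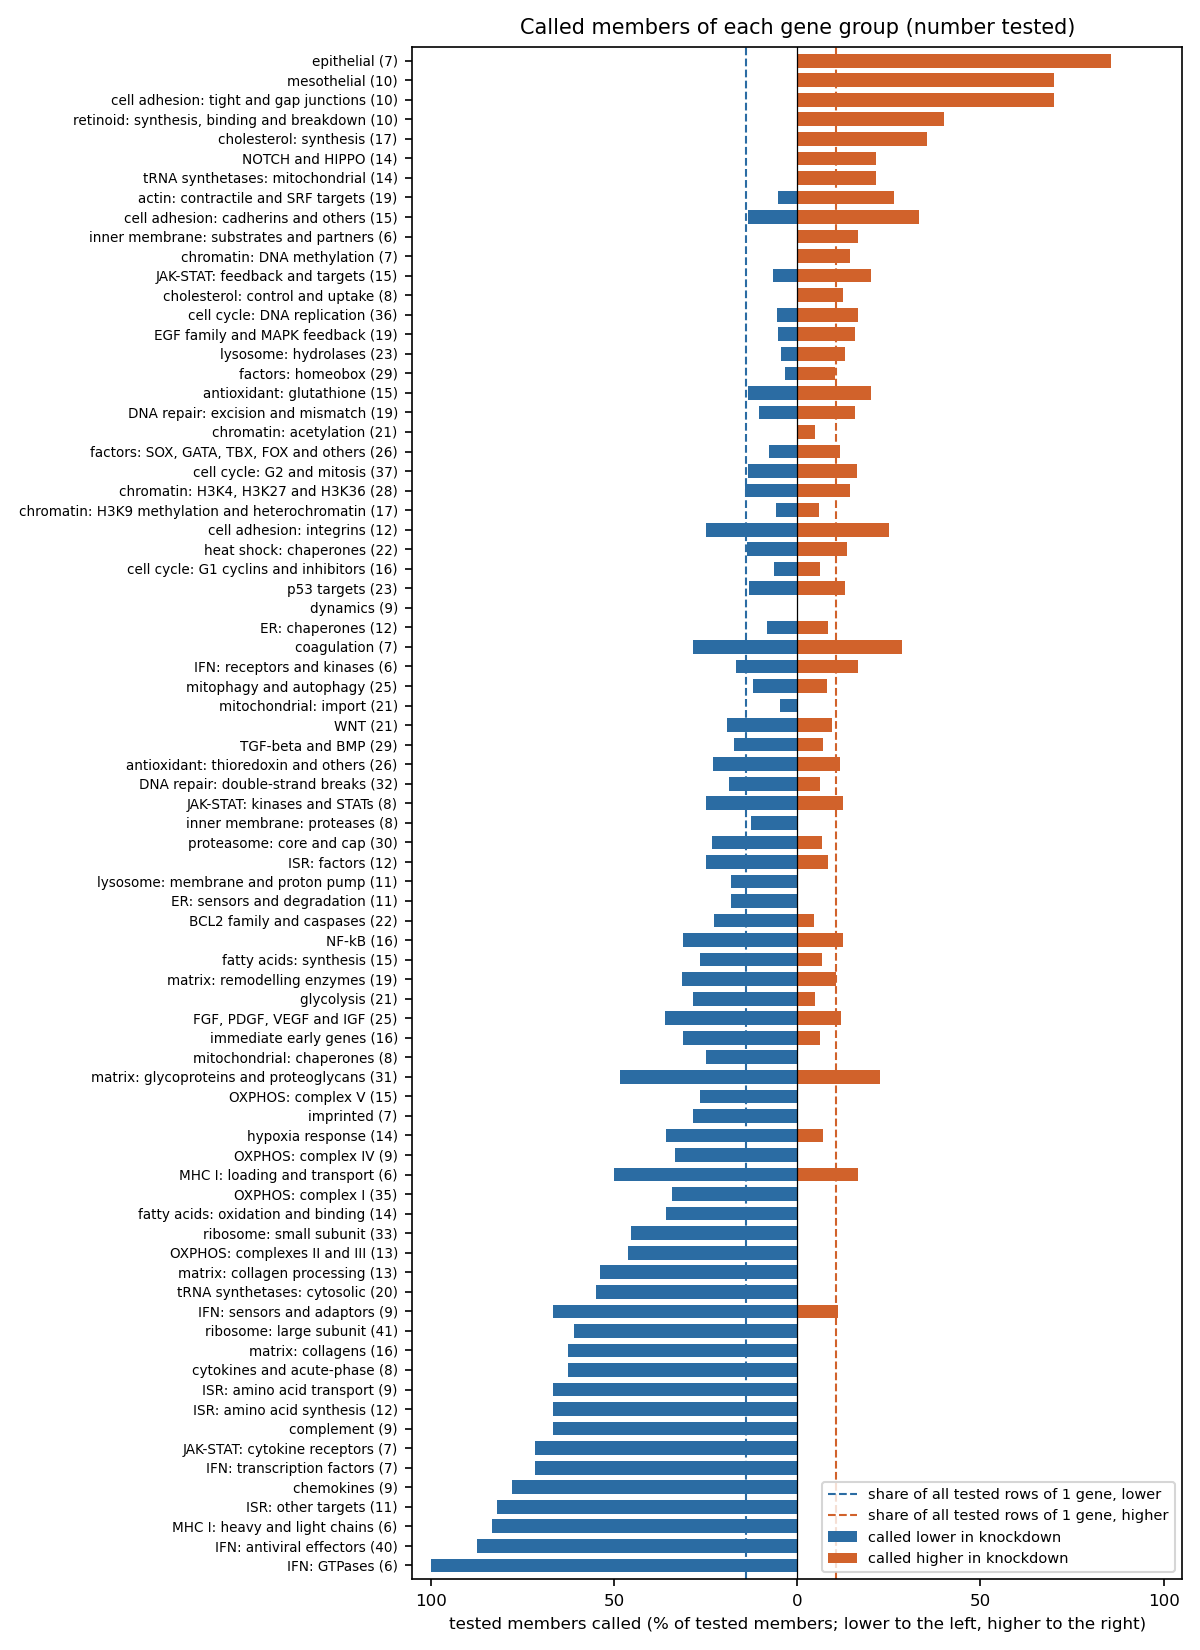
Share of tested members of each gene group called lower (left) or higher (right) in knockdown cells, in percent on the horizontal axis, with the number tested in brackets and dashed lines at the shares of all tested rows of 1 gene, 13.9% lower and 10.6% higher. Most interferon, MHC class I, stress response and collagen groups extend far to the left, and epithelial, mesothelial and junction groups far to the right. Interferon receptors and kinases stand at 16.7% lower and 16.7% higher, and stress response factors at 25% lower and 8.33% higher.

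Nuclear genes of oxidative phosphorylation, the respiratory chain and ATP synthase, fell in 25 of 72 and 0 rose (1 unadjusted). The changes were small, with a median log2 difference of -0.22, and 11 fell with centring within chromosomes. Without control library 1, control 3, knockdown 2 and knockdown 3 in turn, the falls were 16, 14, 16 and 13. By complex, 12 of 35 genes of complex I, 6 of 13 of complexes II and III, 3 of 9 of complex IV and 4 of 15 of ATP synthase fell. Chromosome centring left 7, 1, 1 and 2, and the lowest counts with 1 library left out were 6, 3, 2 and 2. With scaling to an equal total 1 gene rose. Cyc1, a complex III subunit gene, went from 93.4, 97.6 and 96.1 to 67.6, 69.1 and 68.3 FPKM (log2 difference -0.48, adjusted p = 0.0011) and Uqcrq from 48.1, 58.1 and 50.5 to 29.3, 34.7 and 36.5. Ndufs6 of complex I went from 38.2, 42.7 and 38.5 to 29.4, 25.5 and 26.6 FPKM, Cox5b from 59.9, 61.1 and 63.2 to 46.7, 40.4 and 44.5, and the c-ring genes Atp5g1 and Atp5g2 from 11.8, 15.7 and 14.3 to 8.51, 9.39 and 9.1 and from 9.88, 11 and 12.3 to 7.52, 7.04 and 7.49. The most abundant, Atp5b, was at 277, 275 and 249.8 against 253, 258 and 249 FPKM with overlapping groups. The limma call was lost without 1 library for Atp5g1 (control 3, knockdown 1, knockdown 2 or knockdown 3, adjusted p up to 0.062). Mitochondrially encoded genes had few rows, and mt-Cytb, the protein gene tested, was at 167, 13.6 and 14 against 0, 14.2 and 13.4 FPKM with no call. Calls lost with centring within chromosomes were those of Uqcrq (log2 difference -0.36, adjusted p = 0.063), Atp5g1 (log2 difference -0.31, adjusted p = 0.099) and Atp5g2 (log2 difference -0.30, adjusted p = 0.065). The log2 difference of Cyc1 was then -0.26.

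Mitochondrial chaperone and import genes fell in 3 of 29 (10.3%, against 13.9% of all tested rows of 1 gene) and 0 rose (0 unadjusted), and 1 to 4 fell with 1 library left out. Hspe1 went from 136, 119.7 and 118 to 101, 84 and 89.4 FPKM, the outer membrane assembly gene Samm50, on chromosome 15, from 86.7, 90.9 and 91.1 to 68.5, 72 and 72.5 and Trap1 from 31.9, 34.1 and 33.5 to 25.9, 27.2 and 29.9. The chaperonin gene Hspd1 was at 379, 343 and 346 against 337, 316 and 351 FPKM with no call. Of 9 genes of mitochondrial fusion and division, 0 were called by limma (0 higher and 2 lower unadjusted), and 0 to 2 fell with 1 library left out. Of 25 mitophagy and autophagy genes, 3 fell (12%) and 2 rose (8%, against 10.6% of all tested rows of 1 gene), and 0 to 3 rose with 1 library left out. The receptor gene Sqstm1, also an Atf4 target, went from 141, 143 and 124 to 74, 87 and 86.6 FPKM (log2 difference -0.72, adjusted p = 0.0051) and Bnip3 from 10.6, 10.1 and 11.3 to 6.8, 7.16 and 6.96. Fits without 1 library lost the call of Hspe1 (any library but knockdown 1, adjusted p up to 0.078), Trap1 (any library but knockdown 3, adjusted p up to 0.13) and Calcoco1 (any library but control 1, adjusted p up to 0.11). In fits that left out a library, the call ended for Optn (control 2, control 3, knockdown 1 or knockdown 2, adjusted p up to 0.068) and Fundc1 (control 2 or control 3, adjusted p up to 0.054). Chromosome centring ended the call of Hspe1 (log2 difference -0.34, adjusted p = 0.051), Samm50 (log2 difference -0.11, adjusted p = 0.16), Trap1 (log2 difference -0.20, adjusted p = 0.098) and Calcoco1 (log2 difference -0.18, adjusted p = 0.23). The log2 difference of Sqstm1 was then -0.45. Calls ended as well for Trap1 with median centring, no filter on low values, no variance trend, quantile normalization or scaling to an equal total (adjusted p up to 0.12) and for Calcoco1 with no filter on low values, quantile normalization or scaling to an equal total (adjusted p up to 0.065). Under each of the 4 other scalings 4 mitophagy and autophagy genes rose.

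Of 74 cytosolic ribosomal protein genes, 40 fell and 0 rose (0 unadjusted), with a median log2 difference of -0.36 and 73 of 74 below 0. Rpl34 was at 88.8, 77 and 77.6 FPKM in control and 50.5, 48.1 and 45.6 in knockdown libraries (log2 difference -0.74, adjusted p = 0.0026) and Rpl32 at 572, 561 and 561 and 386, 335 and 353 (-0.66, adjusted p = 0.0018). Rps29, Rpl22l1, Rps16 and Rpl37a changed by -0.83, -0.82, -0.74 and -0.68. The most abundant, Rps24, was at 1181, 991 and 972 against 1023, 878 and 872 FPKM with overlapping groups. Centring within chromosomes left 24 falls, and without any library but knockdown 1 the count was 22 to 26, against 44 without knockdown 1. Leaving out 1 library ended the call of Rps29 (control 1, control 2, control 3 or knockdown 3, adjusted p up to 0.078), Rpl22l1 (control 1, control 3, knockdown 2 or knockdown 3, adjusted p up to 0.088) and Rps16 (control 1, control 2, control 3 or knockdown 2, adjusted p up to 0.085). With 1 library omitted, the call was lost for Rpl37a (any library but knockdown 1, adjusted p up to 0.12). Proteasome genes fell in 7 of 30 and 2 rose, and 1 fell with centring within chromosomes. With 1 library left out 3 to 5 fell and 0 or 1 rose. Psmc2 was at 40.1, 36.4 and 37.6 FPKM against 24.5, 23.1 and 21.5, and Psmb3 at 103, 97.6 and 97.9 against 75.2, 76.5 and 74.8. Omission of a single library ended the call of Psmb6 (control 2, control 3, knockdown 2 or knockdown 3, adjusted p up to 0.078), Psmb7 (any library but knockdown 1, adjusted p up to 0.12) and Psma4 (control 3, knockdown 1, knockdown 2 or knockdown 3, adjusted p up to 0.096). The limma call was lost without 1 library for Psmd8 (any library but control 2, adjusted p up to 0.11). Centring within chromosomes ended the call of Rpl37a (log2 difference -0.58, adjusted p = 0.058), Psmb3 (log2 difference -0.13, adjusted p = 0.14), Psmb6 (log2 difference -0.14, adjusted p = 0.28), Psmb7 (log2 difference -0.19, adjusted p = 0.18) and Psma4 (log2 difference -0.08, adjusted p = 0.55). Other settings ended calls too, for Rpl37a with median centring or no filter on low values (adjusted p up to 0.072), for Psmb6 with scaling to an equal total (adjusted p = 0.053), for Psmb7 with median centring or no filter on low values (adjusted p up to 0.069), for Psma4 with median centring or no filter on low values (adjusted p up to 0.066) and for Psmd8 with no filter on low values (adjusted p = 0.061). Without that filter 4 proteasome genes fell and 0 rose (limma, adjusted).

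Of 22 cytosolic chaperone genes, 3 fell and 3 rose (13.6% each, against 13.9% and 10.6% of all tested rows of 1 gene). The members of the CCT chaperonin ring went both ways: Cct4 fell from 131, 117 and 119 to 94.4, 95.3 and 86.3 FPKM, Cct5 from 241, 235 and 238 to 194, 195 and 194 and Cct7 from 78.8, 77.6 and 77.2 to 66.8, 62.9 and 63.4, while Tcp1 rose from 145, 125 and 138 to 189, 189 and 167. With centring within chromosomes 0 fell (limma, adjusted) and 5 rose, as many rose with quantile normalization or median centring, and 1 rose without control library 3. Hspa4l rose from 4.48, 4.61 and 4.28 to 6.67, 6.7 and 6.66 FPKM, and Hsp90ab1, among the most abundant genes, was at 1285, 1256 and 1238 against 1296, 1242 and 1289. Fits without 1 library lost the call of Tcp1 (control 3, knockdown 1 or knockdown 2, adjusted p up to 0.063) and Bag3 (any library but knockdown 3, adjusted p up to 0.083). Centred within chromosomes, the call was lost for Cct4 (log2 difference -0.14, adjusted p = 0.25), Cct5 (log2 difference -0.07, adjusted p = 0.42) and Cct7 (log2 difference -0.17, adjusted p = 0.16).

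Antioxidant genes moved in both directions, with 6 higher (14.6%) and 8 lower (19.5%) of 41, against 10.6% and 13.9% of all tested rows of 1 gene. The lower count was 5 without control library 2 or with quantile normalization. Gsta4, a glutathione transferase gene for lipid aldehydes, was at 120.1, 124 and 104 FPKM in control and 371, 344 and 354 in knockdown libraries (log2 difference 1.61, SE 0.076, adjusted p = 0.00024). The aldehyde dehydrogenase gene Aldh3a1 rose from 6.97, 7.87 and 6.47 to 22.6, 21.3 and 20.4 FPKM and Mgst3 from 3.22, 3.31 and 3.48 to 9.5, 9.82 and 10.7. Gstt1 fell from 5.1, 4.84 and 5.11 to 1.22, 1.71 and 1.63 FPKM. The heme oxygenase gene Hmox1 was at 48.1, 49.4 and 29.2 FPKM against 21.2, 21.6 and 11.6, and the ferritin heavy chain gene Fth1 at 806, 1601 and 1585 against 559, 577 and 590.3, while the light chain gene Ftl1 was at 726, 757 and 730.4 against 689.6, 800.1 and 790.3 with no call. In fits that left out a library, the call ended for Hmox1 (any library but control 3, adjusted p up to 0.14) and Fth1 (any library but control 1, adjusted p up to 0.11). Calls lost with centring within chromosomes were those of Hmox1 (log2 difference -1.26, adjusted p = 0.051) and Fth1 (log2 difference -1.01, adjusted p = 0.068). A call was further lost for Hmox1 with a filter on the mean, median centring, no filter on low values, no variance trend, quantile normalization, robust variance or scaling to an equal total (adjusted p up to 0.08) and for Fth1 with no filter on low values or quantile normalization (adjusted p up to 0.074).

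Of 25 genes of cholesterol synthesis and uptake, 7 rose and 0 fell (1 unadjusted; 1 with centring within chromosomes), with a median log2 difference of 0.28. Idi1, an isoprenoid enzyme gene, went from 10.2, 8.16 and 9.96 to 17.5, 17 and 16.2 FPKM (log2 difference 0.78, adjusted p = 0.0041), Hsd17b7 from 2.79, 3.16 and 2.9 to 5.27, 5.21 and 5.07, Mvd from 4.28, 4.34 and 4.74 to 6.09, 6.84 and 7.21 and Sqle from 6.63, 5.79 and 6.19 to 8.66, 8.59 and 8.19. The cholesterol carrier gene Stard4 rose from 1.74, 1.49 and 1.36 to 3.52, 2.8 and 3.25 FPKM. Hmgcs1 was at 20.8, 19.8 and 20 against 29.3, 27.9 and 16.8, with knockdown library 3 under all others and no call. Fatty acid genes fell in 9 of 29 and 1 rose. Scd1, the main fatty acid desaturase gene, was at 41.3, 40.6 and 40.2 FPKM in control and 14.1, 13.4 and 13.2 in knockdown libraries (log2 difference -1.52, SE 0.044, adjusted p = 5.5e-05), Acsl4 went from 44.4, 45.3 and 44.1 to 19.6, 28.1 and 26.4 and Agpat2 from 6.87, 7.15 and 6.79 to 4.44, 4.43 and 4.16, while the desaturase gene Fads2 rose from 47, 52.8 and 51.1 to 64.9, 70.3 and 70.2. Without control library 2, control 3, knockdown 2 and knockdown 3 in turn, 4, 4, 5 and 5 fatty acid genes fell, and without control 1, 2 rose. Leaving out 1 library ended the call of Dgat2 (control 2, control 3 or knockdown 2, adjusted p up to 0.064) and Cpt1a (any library but knockdown 1, adjusted p up to 0.088). Chromosome centring ended the call of Cpt1a (log2 difference -0.37, adjusted p = 0.08). The log2 difference of Sqle was then 0.62 against 0.40, and 4 fatty acid genes rose, against 2 with scaling to an equal total.

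Retinoid genes rose in 4 of 10 and 0 fell (0 unadjusted), and 1 to 3 rose with 1 library left out. Rdh10, which makes retinaldehyde, was at 4.85, 4.9 and 4.78 FPKM in control and 28.8, 26.3 and 27.6 in knockdown libraries (log2 difference 2.29, SE 0.051, adjusted p = 2.8e-05). Aldh1a1, which oxidises retinaldehyde, went from 10.6, 7.31 and 9.06 to 18.7, 14.1 and 14 FPKM, the carrier gene Rbp4 from 40, 39.1 and 47.5 to 59.7, 77.5 and 63.1 and Dhrs3 from 1.18, 1.36 and 1.54 to 2.09, 2.78 and 2.91. With 1 library omitted, the call was lost for Aldh1a1 (any library but control 1, adjusted p up to 0.084), Rbp4 (control 1, control 2 or knockdown 3, adjusted p up to 0.065) and Dhrs3 (control 1, control 2, knockdown 2 or knockdown 3, adjusted p up to 0.067). Glycolysis genes fell in 6 of 21 and hypoxia genes in 5 of 14, with 1 higher in each and 0 higher with any library left out. Ldhb went from 14, 13.3 and 14.5 to 7.91, 6.78 and 7.85 FPKM, Pfkfb3 from 8.46, 8.88 and 9.5 to 2.71, 3.68 and 5.58, the lactate carrier gene Slc16a3 from 14.5, 13.2 and 20.9 to 7.36, 8.93 and 8.49 and Vegfa from 12.8, 10.8 and 11.9 to 8.02, 6.52 and 5.66. Pgam1 was at 70.6, 341 and 367 FPKM against 345, 343 and 342, with control library 1 apart and no call. Omission of a single library ended the call of Pfkfb3 (control 1, control 2, control 3 or knockdown 2, adjusted p up to 0.076), Slc16a3 (control 1, knockdown 1, knockdown 2 or knockdown 3, adjusted p up to 0.069) and Plod2 (knockdown 1, knockdown 2 or knockdown 3, adjusted p up to 0.071). The limma call was lost without 1 library for Vegfa (knockdown 2, adjusted p = 0.052). Without knockdown library 2, 3 glycolysis and 3 hypoxia genes fell. Centring within chromosomes ended the call of Slc16a3 (log2 difference -0.60, adjusted p = 0.091) and Plod2 (log2 difference -0.55, adjusted p = 0.074). The call also ended for Aldh1a1 with no filter on low values (adjusted p = 0.051). Under chromosome centring 2 glycolysis genes rose, and with quantile normalization or scaling to an equal total 2 hypoxia genes.

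Lysosomal genes changed in few cases, 3 higher and 3 lower of 34 (8.82% each, against 10.6% and 13.9% of all tested rows of 1 gene). Man2b1 rose from 5.37, 6.07 and 5.61 to 7.61, 8.64 and 8.4 FPKM and Gusb from 6.19, 6.41 and 6.37 to 7.98, 8.68 and 9.07, and the membrane gene Cd63 fell from 101, 92.2 and 91.9 to 75, 70.4 and 71.1. Lipa, lysosomal lipase, was at 24.2, 22.7 and 46.2 FPKM against 10.4, 10.2 and 9.48. Fits without 1 library lost the call of Lipa (knockdown 1, knockdown 2 or knockdown 3, adjusted p up to 0.063) and Atp6v1h (any library but knockdown 1, adjusted p up to 0.12). The falls were 1 without knockdown library 3. Targets of p53 gave 3 higher and 3 lower of 23. These shares were near those of all tested rows of 1 gene, 10.6% higher and 13.9% lower. Genes of the BCL2 family and caspases gave 1 higher and 5 lower of 22. Their share of rises was smaller, and their share of falls larger, than among all those rows. The caspase genes Casp4 and Casp12, both on chromosome 9, fell by 0.96 and 0.89 on the log2 scale. Gadd45a was at 20.9, 11.9 and 20.9 FPKM against 2.7, 7.89 and 4.04 and the death receptor gene Fas at 34.6, 17.4 and 32.6 against 5.99, 10.8 and 10.3. In fits that left out a library, the call ended for Gadd45a (control 1, control 3, knockdown 1 or knockdown 3, adjusted p up to 0.091), Fas (any library but control 2, adjusted p up to 0.089) and Plk2 (control 3, knockdown 1, knockdown 2 or knockdown 3, adjusted p up to 0.092). The p53 targets that rose were 1 or 2, and those that fell 1 to 4, with 1 library left out. Without control library 2, control 3 or any knockdown library, or without a filter on low values, 0 genes of the BCL2 family and caspases rose (limma, adjusted), and with centring within chromosomes 3 fell. Centred within chromosomes, the call was lost for Atp6v1h (log2 difference -0.27, adjusted p = 0.086). Calls ended as well for Atp6v1h with median centring, no filter on low values or quantile normalization (adjusted p up to 0.067) and for Plk2 with no filter on low values (adjusted p = 0.056). Chromosome centring or quantile normalization gave 5 higher lysosomal genes, and without the filter 1 p53 target rose.

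Cell cycle genes were called in 13 of 89 higher (14.6%) and 8 lower (8.99%), against 10.6% and 13.9% of all tested rows of 1 gene. Ccnd1, the G1 cyclin D1 gene, was at 21.1, 20.4 and 21.1 FPKM in control and 52, 46.7 and 48.5 in knockdown libraries (log2 difference 1.19, SE 0.054, adjusted p = 0.00022), with no overlap. Of 36 DNA replication genes, 6 rose and 2 fell, among them Rrm2, which supplies deoxynucleotides, from 59.9, 60.6 and 59.1 to 83, 85.5 and 82.2 FPKM. Of 37 genes of G2 and mitosis, 6 rose and 5 fell. The proliferation marker Mki67 went from 52.5, 48.6 and 48.7 to 66.6, 65.5 and 62.7 FPKM and the cytokinesis gene Ect2 from 35.4, 36.7 and 34.6 to 47.6, 46.3 and 45.4, while Nusap1 went from 31.9, 32.2 and 36.2 to 21.6, 26.1 and 27. Pcna was at 158, 172 and 142 against 149, 148 and 139 with overlapping groups. Leaving out 1 library ended the call of Nusap1 (any of the 6 libraries, adjusted p up to 0.11) and Ttk (control 2 or knockdown 3, adjusted p up to 0.056). With 1 library left out, 7 to 9 of the 89 rose and 1 to 6 fell, and of the G2 and mitosis genes 2 or 3 rose and 0 to 3 fell. Of the DNA replication genes 0 to 3 fell with 1 library left out, and 1 under each of the 4 other scalings. In fits with chromosome centring, quantile normalization, median centring and scaling to an equal total in turn, 1, 5, 4 and 3 of the 89 fell, of which 0, 3, 2 and 1 were genes of G2 and mitosis. Calls lost with centring within chromosomes were those of Nusap1 (log2 difference -0.29, adjusted p = 0.13) and Ttk (log2 difference -0.12, adjusted p = 0.27). Other settings ended calls too, for Nusap1 with median centring, no filter on low values, quantile normalization or scaling to an equal total (adjusted p up to 0.083).

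Chromatin genes were called in 7 of 73 higher (9.59%) and 5 lower (6.85%), against 10.6% and 13.9% of all tested rows of 1 gene. With 1 library left out, 3 to 4 rose and 2 to 3 fell. The falls were 1 with centring within chromosomes and 2 with each of the other 3 scalings, and without a filter on low values 4 rose and 3 fell. Kmt2c, a histone methyltransferase gene, went from 3.06, 3.05 and 3.11 to 5.47, 5.92 and 5.69 FPKM (log2 difference 0.72, adjusted p = 0.00087) and the demethylase gene Kdm1a from 24.9, 24.9 and 23.9 to 33.9, 32.7 and 31.2. Daxx fell from 16.5, 18.3 and 17.5 to 13.1, 11.7 and 12.5 FPKM. Trim28, the most abundant, was at 59.5, 66.2 and 64.6 against 58.7, 61.7 and 67.2 with overlapping groups. DNA repair genes were called in 5 of 51 higher (9.80%) and 8 lower (15.7%), also near the shares of all rows. Xrcc3 rose from 1.9, 1.82 and 2 to 4.01, 3.63 and 3.85 FPKM and the mismatch repair gene Msh6 from 23.6, 21.8 and 22.2 to 32.4, 31.8 and 30.7, and the checkpoint kinase gene Atr fell from 1.93, 2.09 and 2.04 to 1.16, 1.2 and 1.3. Apex1, the most abundant, was at 37, 47.5 and 49.7 against 42.1, 46.2 and 49.2 with no call. With 1 library omitted, the call was lost for Hdac2 (any library but control 3, adjusted p up to 0.095), Ogg1 (control 2, knockdown 1, knockdown 2 or knockdown 3, adjusted p up to 0.069) and Xrcc6 (knockdown 2 or knockdown 3, adjusted p up to 0.062). Omission of a single library ended the call of Mre11a (control 2 or knockdown 3, adjusted p up to 0.062). Without control library 3, knockdown 2 and knockdown 3 in turn, 3, 3 and 2 repair genes rose, and without control 2, knockdown 2 and knockdown 3, 4, 4 and 2 fell. Under chromosome centring 3 repair genes rose and 2 fell. Chromosome centring ended the call of Atr (log2 difference -0.19, adjusted p = 0.082), Hdac2 (log2 difference 0.28, adjusted p = 0.092), Xrcc6 (log2 difference -0.24, adjusted p = 0.2) and Mre11a (log2 difference -0.20, adjusted p = 0.17). A call was further lost for Hdac2 with no filter on low values (adjusted p = 0.051).

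Of 124 growth factor signalling genes, 14 rose (11.3%) and 24 fell (19.4%), against 10.6% and 13.9% of all tested rows of 1 gene. Igf2, an imprinted fetal growth factor gene, was at 4.78, 4.3 and 4.41 FPKM in control and 0.15, 0.09 and 0.1 in knockdown libraries (log2 difference -2.30, SE 0.065, adjusted p = 4.7e-05). Of 7 tested imprinted genes 2 fell (28.6%, against 13.9% of all tested rows of 1 gene) and 0 rose (2 unadjusted). The log2 difference was above 0 for 5 of the 7, with a median of 0.48. Peg3 was the imprinted gene that fell besides Igf2, from 7, 6.82 and 6.78 to 4.11, 4.05 and 4.13 FPKM. The lymphatic growth factor gene Vegfc went from 3.08, 3.5 and 3.02 to 0.62, 0.55 and 0.71 FPKM and Mafk, a small Maf factor gene, from 11.4, 10.6 and 10.3 to 1.87, 1.74 and 2.24. The Hippo target Ankrd1 rose from 37.6, 33.9 and 32.9 to 146, 134 and 88.8 FPKM (log2 difference 1.76, adjusted p = 0.0035). Wnt10a was at 2.78, 8.3 and 3.79 against 0.63, 0.23 and 0.34, and the Notch modifier gene Lfng at 3.67, 4.38 and 6.7 against 9.21, 20.4 and 20.2. Igf2, Vegfc and Wnt10a passed the filter through the control libraries alone, so they could only fall. The limma call was lost without 1 library for Wnt10a (knockdown 2 or knockdown 3, adjusted p up to 0.054) and Lfng (any library but knockdown 1, adjusted p up to 0.1). Without control library 1 and control 3, 9 and 7 of the 124 rose, against 22 with centring within chromosomes and 9 without a filter on low values. The call also ended for Lfng with no filter on low values (adjusted p = 0.057). Among 55 developmental transcription factor genes, 6 rose (10.9%) and 3 fell (5.45%), against 10.6% and 13.9% of all tested rows of 1 gene. Dlx3 rose from 1.55, 1.66 and 1.54 to 3.73, 3.76 and 3.95 FPKM, Dlx2 from 2.05, 2.15 and 2 to 3.41, 4.13 and 5.02, Ets2 from 31, 31.6 and 31.4 to 42.2, 42.9 and 41.2 and Hoxb9 from 10.5, 10.5 and 10.8 to 13.4, 14.6 and 14.1 (log2 difference 0.38, 0.64 with centring within chromosomes), and Snai1, which represses epithelial genes, fell from 3.49, 4.18 and 3.55 to 1.53, 1.29 and 1.53 (log2 difference -0.95, adjusted p = 0.0018).

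Several of the largest changes lay outside these groups. Eya2, a developmental phosphatase gene, rose from 0.64, 0.53 and 0.47 to 8.79, 9.3 and 9.3 FPKM (log2 difference 2.71, adjusted p = 3.1e-05). It passed the filter through the knockdown libraries alone, so it could only rise. The chloride channel gene Ano1 rose from 3.53, 4.14 and 3.96 to 19, 19.2 and 18.8 FPKM, the pantetheinase gene Vnn1 from 14.9, 8.29 and 13.7 to 49.1, 77.8 and 75.6, Crip1 from 14.9, 15.3 and 16.8 to 76.7, 60.8 and 67.7 and carboxypeptidase E, Cpe, from 17.4, 15.5 and 16.7 to 65, 63.3 and 63.5. Tspan15 rose from 3.04, 3.84 and 3.33 to 15.6, 15 and 13.9 FPKM, Gprc5a from 10.9, 14.9 and 12.5 to 44.8, 50.9 and 47.7, Fhl1 from 2.6, 3.21 and 2.81 to 12.5, 12.3 and 13.4 and the natriuretic peptide gene Nppb from 3.84, 2.43 and 2.69 to 15.7, 13.9 and 13.2. The nuclear RNA Malat1 was at 7.51, 6.18 and 7.25 FPKM against 18.4, 62.3 and 59.4, with knockdown library 1 well under the other 2. Fits without 1 library lost the call of Malat1 (any library but knockdown 1, adjusted p up to 0.071). Serpinf1, which encodes an inhibitor of vessel growth, fell from 22.4, 23.4 and 23.2 to 0.42, 0.57 and 0.71 FPKM (log2 difference -3.94, adjusted p = 2.5e-05). It passed the filter through the control libraries alone, so it could only fall.

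Pgk1-rs7, a copy of the glycolysis gene Pgk1 whose reads cannot be told apart with certainty, was at 24.3, 18.3 and 23.6 FPKM in control libraries, and the knockdown libraries list it at 0. Itpripl2 was at 8.57, 8.59 and 7.94 FPKM in control and also listed at 0 in the 3 knockdown libraries. Pgk1-rs7 and Itpripl2 thus passed the filter through the control libraries alone and could only fall. Among the 10 most abundant rows, Eef1a1, the elongation factor gene, went from 3961, 3795 and 3712 to 3345, 3331 and 3289.7 FPKM (log2 difference -0.20, adjusted p = 0.011) and was above 0 at 0.049 with centring within chromosomes. The galectin gene Lgals1 fell from 1644, 1709 and 1657 to 1297, 1318 and 1351 FPKM (-0.34, adjusted p = 0.0022). Rps3a1, Rpl23a and Npm1 were not called, and Gm26619 fell by 0.39 on the log2 scale. In fits that left out a library, the call ended for Eef1a1 (knockdown 3, adjusted p = 0.056) and Gm26619 (any library but knockdown 1, adjusted p up to 0.11). Centring within chromosomes ended the call of Lgals1 (log2 difference -0.12, adjusted p = 0.078) and Gm26619 (log2 difference -0.30, adjusted p = 0.081). Calls ended as well for Eef1a1 with no filter on low values or quantile normalization (adjusted p up to 1), for Lgals1 with no filter on low values or quantile normalization (adjusted p up to 1) and for Gm26619 with median centring, no filter on low values or quantile normalization (adjusted p up to 0.32).

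The GC2 change was set against the change in spermatocytes of knockout mice, in a fit of all 12 libraries over the 8567 genes that passed the filter in GC2 cells and in spermatocytes. The GC2 change minus the spermatocyte change was called for 5242 genes (61.2%), below 0 for 38.4% and above 0 for 22.8%. In spermatocytes themselves 50.6% of these genes were called higher and 28.6% lower. Interferon genes went in opposite directions: of 46, the difference was below 0 for 38 and above 0 for 4, with median changes of -1.25 in GC2 cells and 0.57 in spermatocytes. MHC class I genes gave 11 of 12 below 0 (medians -0.91 and 0.79), stress response genes 31 of 35 (-0.61 and 1.00), complement and coagulation genes 12 of 15, and ribosomal protein genes 41 of 47 (-0.36 and 0.36). Keratin and epithelial genes differed above 0 in 3 of 3. All 18 actin and smooth muscle genes differed, 13 below and 5 above 0, the largest share of any whole list with more than 3 genes tested in both. Most of them, such as Actb, Zyx, Myh9 and Vcl, were not called in GC2 cells, so their differences mainly carry the spermatocyte change. Tpm2, Flna, Csrp1 and Filip1l were called higher in both kinds of sample, and only Acta2 was called with opposite signs. Calls ended for Tpm2 and Csrp1 with quantile normalization (adjusted p = 0.944 and 0.18) or median centring (0.419 and 0.0821), for Mkl1 without control library 1 (0.068) and for Filip1l without any GC2 library but control 2 and knockdown 1 (up to 0.0871).

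Genes called in both with opposite signs were chosen for that contrast, so their values are a description. B2m fell in GC2 cells as given above and was at 34.2, 32.5 and 35.6 FPKM in control and 113, 114 and 118 in knockout spermatocytes (difference -3.99, SE 0.090, adjusted p = 9.2e-10). Cxcl10 was at 1.66, 0.83 and 1.16 FPKM in control and 11.8, 12.9 and 12.2 in knockout spermatocytes, against a fall in GC2 cells (difference -4.76, adjusted p = 8.9e-09). Rnf213 went from 41.1, 44.5 and 44.7 to 10.1, 10.4 and 10.4 FPKM in GC2 cells and from 6.65, 6.86 and 6.51 to 23.9, 23.7 and 24.2 in spermatocytes. Acta2 fell in GC2 cells and was at 11.3, 10.6 and 10.3 FPKM in control and 25.6, 26.1 and 25.9 in knockout spermatocytes (difference -3.61, adjusted p = 4.5e-10). The GC2 and spermatocyte files hold different rows, and no source says whether they were normalised together, so only the changes are compared, and the spermatocyte preparation can hold other testis cells.

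**Figure D5:**
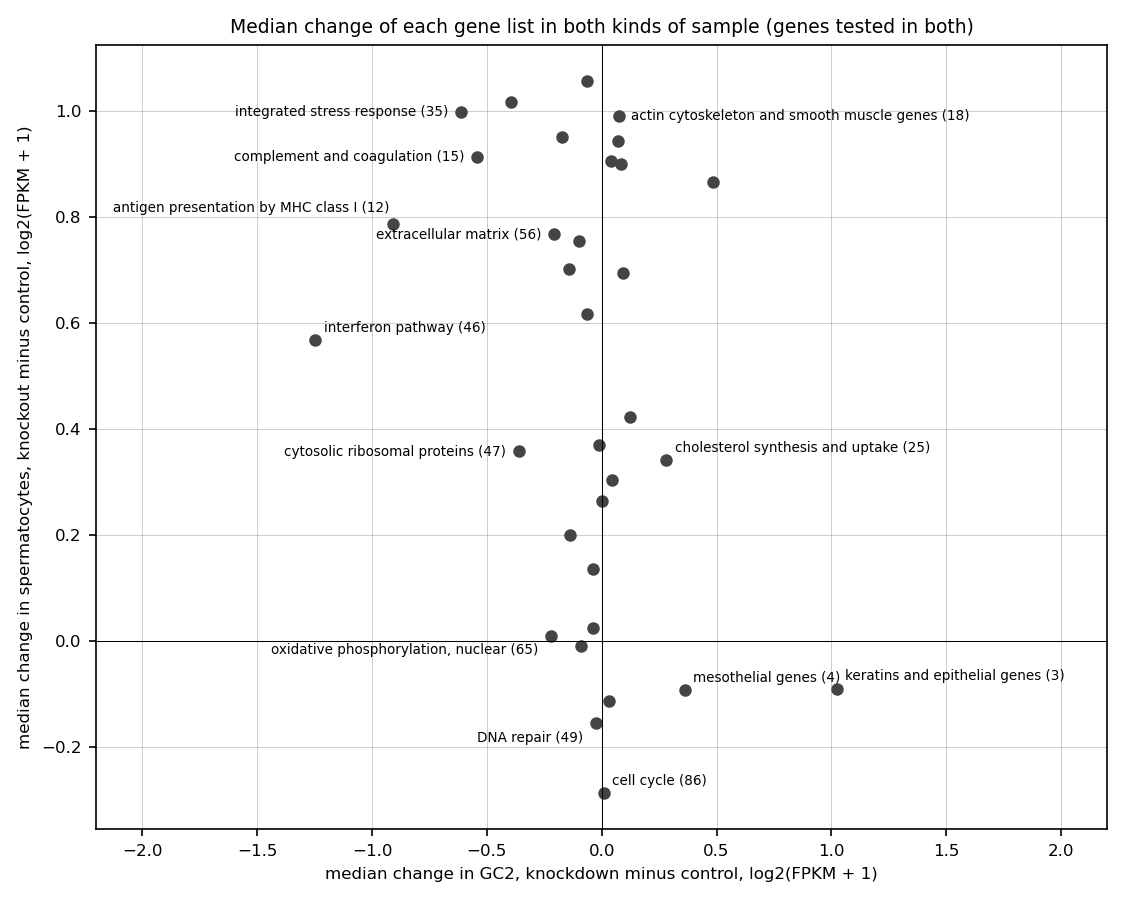
Median change of each gene list in GC2 cells (horizontal axis, knockdown minus control) and in spermatocytes (vertical axis, knockout minus control), both as log2(FPKM + 1) over genes tested in both, with 1 point per list and the number of genes in brackets for the labelled lists. Interferon, MHC class I and stress response lists lie at upper left, with medians of -1.25, -0.91 and -0.61 in GC2 cells, and the keratin list lies at right.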

How the data were processed

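RNA of 3 control and 3 Phb knockdown GC2 samples was sequenced, and the values used are FPKM per gene row as deposited by the authors, 1 file per library. Per the submitters' processing notes, the tools were HISAT2 2.1.0 and DESeq, and GRCm38 and mm10 stand as builds, with no role given. The program and annotation behind the FPKM values, not given in the sources used here, decide how reads of overlapping or near-identical genes were shared out. The library kit marks strand, per the labels' protocols. The depth of each library is unknown, so no interval from counts is given, and the FPKM totals were 203973.4 to 206711.4 in control and 194948.6 to 201776.3 in knockdown libraries.

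Rows were matched to GENCODE M21 gene IDs on GRCm38. Rows of at least 1 FPKM in 3 or more of the 6 GC2 libraries were tested with limma 3.58.1 (R 4.3.3) on log2(FPKM + 1) with an intensity trend, 2-sided, with Benjamini-Hochberg adjustment over all 10791 rows and a threshold of 0.05. An exact permutation test of 3 against 3 cannot go below 0.1. On simulated data of 10791 rows with 200 changed, the fit for this comparison recovered 54%, 68% and 86% of rows raised 1.5-fold, 2-fold and 4-fold, and 6.92% of its calls were unchanged rows. The changed rows were drawn from those at a control level of 5 FPKM or more. These rates do not cover lower rows, and the share of called rows was larger in the real data. The difference between the GC2 and the spermatocyte change was fitted with limma over all 12 libraries. Alternatives were another pseudocount, filters, scalings, variance settings, a replicate block and leaving out each library.

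The 34 gene lists, the 11 marker lists and the rules were chosen with earlier results of these data known. Named genes are Phb and Phb2; the 15 largest called rises and falls at 5 FPKM or more in the higher group without overlap; up to 6 called members of each list at 2 FPKM or more and its most abundant member; the 2 most abundant members of each marker list and those at or under 0.1 FPKM; the 10 highest rows; 5 genes on each of the 2 chromosomes with the highest and the 2 with the lowest share of higher calls among those with 30 calls or more; and 6 genes with opposite changes in both kinds of sample, with the members of the list that differed most. Names outside these rules are said to be chosen after their values were seen. Results of some genes that these rules name are not reported here. Promoters are from RefSeq, GRCm38.p6, searched with Python 3.11.15 for 5 motifs on both strands.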

Additional observations from a re-analysis of the deposited data

Results flagged for a closer look

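The change in GC2 cells differed from that in spermatocytes of knockout mice, by limma's test of the difference, for the 6 genes with opposite calls and for all 18 tested genes of actin and smooth muscle. The 6 were chosen for their opposite calls and the list for its share of differences, so these values are a description and no support of the contrast. The values are the GC2 change minus the spermatocyte change on the log2(FPKM + 1) scale. They were -4.76 for Cxcl10, -4.33 for Ly6e, -3.99 for B2m, -3.82 for Ifi27, -3.68 for Rnf213 and -3.60 for Mafk. Of the actin and smooth muscle genes, Acta2 stood at -3.61, Zyx at -1.66, Vcl at -1.49, Tpm1 and Tpm4 at -1.44, Cnn3 at -1.32, Actb at -1.06 and Myh9 and Cald1 at -1.03. Tagln2 was at -0.91, Flna at -0.70, Csrp1 at -0.34 and Tpm2 at -0.25. Differences above 0 were 1.57 for Filip1l, 1.28 for Myh10, 1.15 for Csrp2, 0.38 for Mkl1 and 0.36 for Cnn2. Of the 18 only Acta2 was called with opposite signs in both kinds of sample, and most were not called in GC2 cells. Without knockdown library 2, at 134 FPKM of Tpm4 against 371 and 378 in the other knockdown libraries, the difference of Tpm4 was -0.95. With quantile normalization it was -0.71 for Actb, 0.60 for Cnn2 and 0.59 for Mkl1. Calls ended for Tpm2 and Csrp1 with quantile normalization (-0.0072 and -0.15) or median centring (-0.080 and -0.17), for Mkl1 without control library 1 (0.34), and for Filip1l without control library 1 or 3 or knockdown library 2 or 3 (1.29 to 1.39). No rule on the gap of 1 library to its group was applied to groups of 3.

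Rows without a gene name, which enter no gene list, held 3.66% ± 0.255 of the FPKM total in knockdown libraries (SD, n = 3) and 2.16% ± 0.0516 in control libraries (SD, n = 3). The libraries ran from 3.428% to 3.934% and from 2.106% to 2.204%, with no overlap.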

How the results depend on the processing

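Counts of the smaller lists moved by over 1.5 times in several settings, and the values under other scalings, without a filter and without 1 library stand beside those counts. With centring within chromosomes the rows called lower were 838 (1496 in the fit as reported), ribosomal protein genes lower 24 (40) and oxidative phosphorylation genes lower 11 (25). The difference between GC2 and spermatocyte changes was called for 9876 rows without a filter (5242), since more rows were tested. With 1 library left out, 744 to 962 rows were higher and 1034 to 1296 lower. Lower members were then 47 to 52 of the interferon list, 10 to 11 of MHC class I, 5 to 6 of complement, 13 to 16 of cytokines and NF-kB, 22 to 26 of the stress response, 10 to 11 of cytosolic tRNA synthetases, 22 to 44 of ribosomal proteins, 13 to 22 of oxidative phosphorylation and 31 to 35 of the matrix. Higher members were 5 to 6 of the epithelial, 6 to 7 of the mesothelial, 5 to 7 of the junction and 7 to 9 of the cholesterol list. Chromosome 9 then held 67 to 95 lower genes, chromosome 15 65 to 85, chromosome 18 50 to 59 higher and chromosome 4 67 to 92 higher, and 5157 to 5266 differences were called.

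The replicate numbers are shared between groups, but same-numbered libraries correlated in their deviations at 0.124, 0.078 and 0.061, so not every pair passed 0.1 and the numbers were not used as pairs. Each library correlated best with its own number, a hint from the data and not the design. With a replicate block 853 rows were higher and 1132 lower, and 73 genes of chromosome 9 were lower (115). By limma's adjusted p, counts that moved by over 1.5 times with the block were, for lower members, 1 of the prohibitin list (2), 3 of NF-kB (5), 5 of mitochondrial chaperones and import (3), 1 of fusion and division (0), 1 of p53 targets (3), 3 of the cell cycle (8), 1 of DNA replication (2), 1 of G2 and mitosis (5), 1 of integrins (3), 2 of chromatin (5) and 5 of DNA repair (8). For higher members they were 1 of the interferon list (2), 0 of its sensors (1), 1 of NF-kB (2), 1 of mitochondrial synthetases (3), 1 of mitochondrial chaperones and import (0), 5 of lysosomal genes (3), 0 of p53 targets (3), 3 of G2 and mitosis (6), 0 of the proteasome (2), 0 of glycolysis and 0 of hypoxia genes (1 each), 2 of fatty acid genes (1) and 4 of chromatin (7). Of the JAK-STAT list 1 was then higher (4), with 0 of its kinases and STATs (1) and 1 of its feedback genes and targets (3). Of these feedback genes and targets 0 were lower (1).

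Of 4130 alternatives over 243 named genes, 3734 kept direction and side of the threshold, 358 lost the call, 7 gained it and 31 changed sign. Of 336 alternatives over 24 named differences, 327 kept both, 9 lost the call and 0 changed sign. Scaling to an equal total makes the pseudocount smaller against each value, and Zbp1 (-4.67), Chac1 (-4.48), Dsp (1.56), Igf2 (-3.87) and Itpripl2 (-5.38) then moved by over 1.5 times. Sign changes, as log2 differences, were these, and the cause was not tested. With quantile normalization Phb2 was at 0.0036, P4hb 0.082, Atp5b 0.027, Ctsl 0.023, Rps24 0.12, Trim28 0.014, Rpl23a 0.066 and Npm1 0.0078. With median centring Phb2 was at 0.0053, P4hb 0.0083 and Trim28 0.022, and with scaling to an equal total at 0.016, 0.021 and 0.034. With centring within chromosomes Phb2 was at 0.066, Nars -0.091, P4hb 0.23 (adjusted p = 0.0162), Hspd1 0.0085, Pcna 0.020, Actb -0.027, Trim28 0.066, Eef1a1 0.049, Rpl23a 0.14 and Npm1 0.093. With 1 library left out, Pgam1 ran from -0.043 to 1.14, Trim28 from -0.074 to 0.022, Phb2 from -0.091 to 0.0062, Actb from -0.11 to 0.12 and Apex1 from -0.086 to 0.12. Eef1a1 was called lower in the fit as reported, and the others were not called there. Depth cannot be read from FPKM, so what it limits was not assessed.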
